A study of Mus musculus with 16 samples.

Results

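The 9 genes described here encode the hemidesmosome of the skin and the epidermal laminins beneath it, namely Itga6, Itgb4, Itga3, Col17a1, Lama3, Lamb3, Lama5, Dst and Plec. They were taken as every probeset of the array whose annotation gives exactly 1 gene symbol that is among these names, which yielded 20 of the 45037 probesets measured, and 9 of the 18193 genes that could be read. The values are log2 signals of MOE430 2.0 arrays, 1 array per sample, from 4 samples of control skin and 12 skin carcinomas, all on the FVB background. Control skin was normal wild type tissue that carried neither Cre nor a loxP allele. The 7 p53 tumors came from k14Cre;p53loxP/loxP animals and the 5 pRbp53 tumors from animals that were k14Cre;p53loxP/loxP;pRbloxP/loxP, so loss of p53 is shared by all 12 carcinomas. Cre was driven by the keratin 14 promoter, which is active in the basal layer of stratified epithelia. The histological label of the pRbp53 tumors was spindle in 4 and mixed in 1, and that of the p53 tumors was poorly differentiated in 3, mixed in 2, spindle in 1 and undifferentiated in 1. Since the labels do not tie each sample to its own animal, p-values refer to the spread among these arrays, which may be partly technical.

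Hemidesmosomes rivet the basal keratinocyte to the basement membrane. On the outside of the cell the integrin α6β4 and the transmembrane collagen XVII, encoded by Col17a1, bind laminin-332, a laminin that contains the chains encoded by Lama3 and Lamb3, and on the inside the plakins BP230, the epithelial product of Dst, and plectin tie both to the keratin filaments. The integrin α3, the product of Itga3, pairs with β1 and binds the same laminin outside the hemidesmosome, and Lama5 encodes the α5 chain of laminin-511, which is found under the epidermis and under many simple epithelia. Inherited loss of most of these proteins blisters the skin. A signal on these arrays compares samples within a probeset, so levels of different genes were not set against each other, and fewer epithelial cells in a sample cannot be told apart from less RNA per cell.

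The samples differ in more than these genes. Median log2 signals of the 16 arrays lay between 5.63 and 5.76, and the actin probesets, brighter at the 3' than at the 5' end of degraded RNA, differed by 1.33 in control skin 3, by 1.67 in p53 tumor 7 and by 0.21 to 0.68 in the remaining 14 arrays. Control skin 2 and 4 correlated at r = 0.996 over all probesets, above the 0.970 to 0.984 of the other control pairs, although their values were not identical. All 4 skeletal muscle markers (Acta1, Ckm, Myh4, Ttn) fell in the tumors, their mean log2 signal lying between 13.39 and 13.63 in control skin and between 4.65 and 9.14 in the tumors. The keratinocyte marker Krt5 lay between 12.72 and 13.04 in control skin, and Krt14 between 12.90 and 13.18. In the 6 undifferentiated or spindle tumors Krt5 was 5.05 to 5.72 and Krt14 4.36 to 6.99. The poorly differentiated tumor p53 tumor 5 was also low in both, at 4.76 and 4.41, with Krt8 at 12.97 and Krt18 at 13.22. The milk protein gene Csn2 had a log2 signal above 6 in 5 arrays, at 9.83 in control skin 3, 11.65, 8.75 and 13.67 in the poorly differentiated p53 tumors 2, 4 and 5, and 10.80 in p53 tumor 3. The part of these differences in the results below was not tested except where a value without those arrays is given. Every poorly differentiated tumor is among the arrays with Csn2 above 6, so no such value can be given for comparisons with that subtype. In those comparisons Csn2 signal and histological label are largely confounded.

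RefSeq promoter windows (250 bases before to 50 after a start site, build GRCm38.p6) were at hand for 5 of the 9 genes. Those of Col17a1, Lamb3 and Lama5 are printed because these genes carried the differences described below, and both starts of Dst because its probesets gave different patterns. Capitals mark the core promoter letters TATAAA, known as the TATA box, the letters CACCTG, an E-box of the kind bound by Snail and Zeb factors, and GGGCGG, known as the GC box, read on either strand. Of 32851 windows of this length, 13.6% hold a TATA box, 20.2% the E-box, 35.7% a GC box and 7.81% the AP-1 motif TGANTCA, and in the windows printed no motif overlapped another.
Col17a1, chr19:47691993-47692292, minus strand: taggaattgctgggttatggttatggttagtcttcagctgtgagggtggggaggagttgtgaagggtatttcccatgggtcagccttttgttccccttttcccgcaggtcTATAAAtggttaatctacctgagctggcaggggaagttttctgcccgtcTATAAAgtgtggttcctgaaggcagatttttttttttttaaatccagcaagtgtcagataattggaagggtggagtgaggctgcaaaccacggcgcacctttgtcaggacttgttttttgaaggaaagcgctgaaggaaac
Lamb3 downstream start, chr1:193301993-193302292, plus strand: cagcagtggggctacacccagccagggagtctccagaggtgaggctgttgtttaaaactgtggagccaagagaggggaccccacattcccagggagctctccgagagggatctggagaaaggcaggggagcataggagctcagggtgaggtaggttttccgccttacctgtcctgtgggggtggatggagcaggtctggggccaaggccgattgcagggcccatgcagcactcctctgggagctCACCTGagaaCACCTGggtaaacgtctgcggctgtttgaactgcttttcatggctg
Lama5, chr2:180225810-180226109, minus strand: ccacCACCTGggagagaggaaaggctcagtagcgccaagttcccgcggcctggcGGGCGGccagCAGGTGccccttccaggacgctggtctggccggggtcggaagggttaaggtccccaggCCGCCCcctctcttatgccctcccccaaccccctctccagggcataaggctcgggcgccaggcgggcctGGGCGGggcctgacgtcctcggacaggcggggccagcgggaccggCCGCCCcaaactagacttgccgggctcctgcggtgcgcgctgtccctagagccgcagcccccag
Dst first start, chr1:34011345-34011644, plus strand: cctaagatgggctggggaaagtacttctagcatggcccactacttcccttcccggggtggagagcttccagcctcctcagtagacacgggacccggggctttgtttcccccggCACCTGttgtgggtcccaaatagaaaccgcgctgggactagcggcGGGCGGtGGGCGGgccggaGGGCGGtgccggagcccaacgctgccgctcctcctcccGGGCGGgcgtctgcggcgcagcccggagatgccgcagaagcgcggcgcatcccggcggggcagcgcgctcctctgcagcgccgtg
Dst second start, chr1:34160010-34160309, plus strand: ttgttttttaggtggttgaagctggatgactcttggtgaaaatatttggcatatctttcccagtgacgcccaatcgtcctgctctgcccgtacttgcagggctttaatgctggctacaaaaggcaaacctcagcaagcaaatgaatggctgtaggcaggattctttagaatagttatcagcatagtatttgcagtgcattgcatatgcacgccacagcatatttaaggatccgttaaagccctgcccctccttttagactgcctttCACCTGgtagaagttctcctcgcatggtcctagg
The Col17a1 window held 2 TATA boxes and neither of the other motifs. Lamb3 has 2 windows in the table, of which that of the downstream start is printed and held 2 E-boxes and no GC box, while that of the upstream start held none of the 4 motifs. The Lama5 window held 2 E-boxes and 4 GC boxes, with 72.7% G and C. The first Dst start had 4 GC boxes and 1 E-box in 70.3% G and C, and the second start 1 E-box in 46% G and C. No AP-1 motif was found in these 5 windows, and which Dst start feeds which probeset is not known from the files. These matches are a description of letters and not of binding.

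The comparison by histology asked how these genes differ between the 6 undifferentiated or spindle tumors and the 3 poorly differentiated tumors. Itgb4 and Lama5 fell, with log2 differences of -3.09 ± 0.28 and -2.01 ± 0.31 (SE; adjusted p = 4.72e-04 and 0.00619 by limma), which is 8.51-fold and 4.03-fold. These 2 of 9 genes passed and were lower, where 4.64% of all genes did, and the other 7 did not pass. The median difference of the 9 genes was -2.01, against 0.02 for all genes. Against control skin the undifferentiated or spindle tumors had lower Col17a1, Itgb4, Lama3 and Lamb3, which is 4 of 9 genes where 12.5% of all genes were called lower. The poorly differentiated tumors had higher Lama5 alone, 1 of 9 genes where 6.38% of all genes were called higher.

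**Figure D1:**
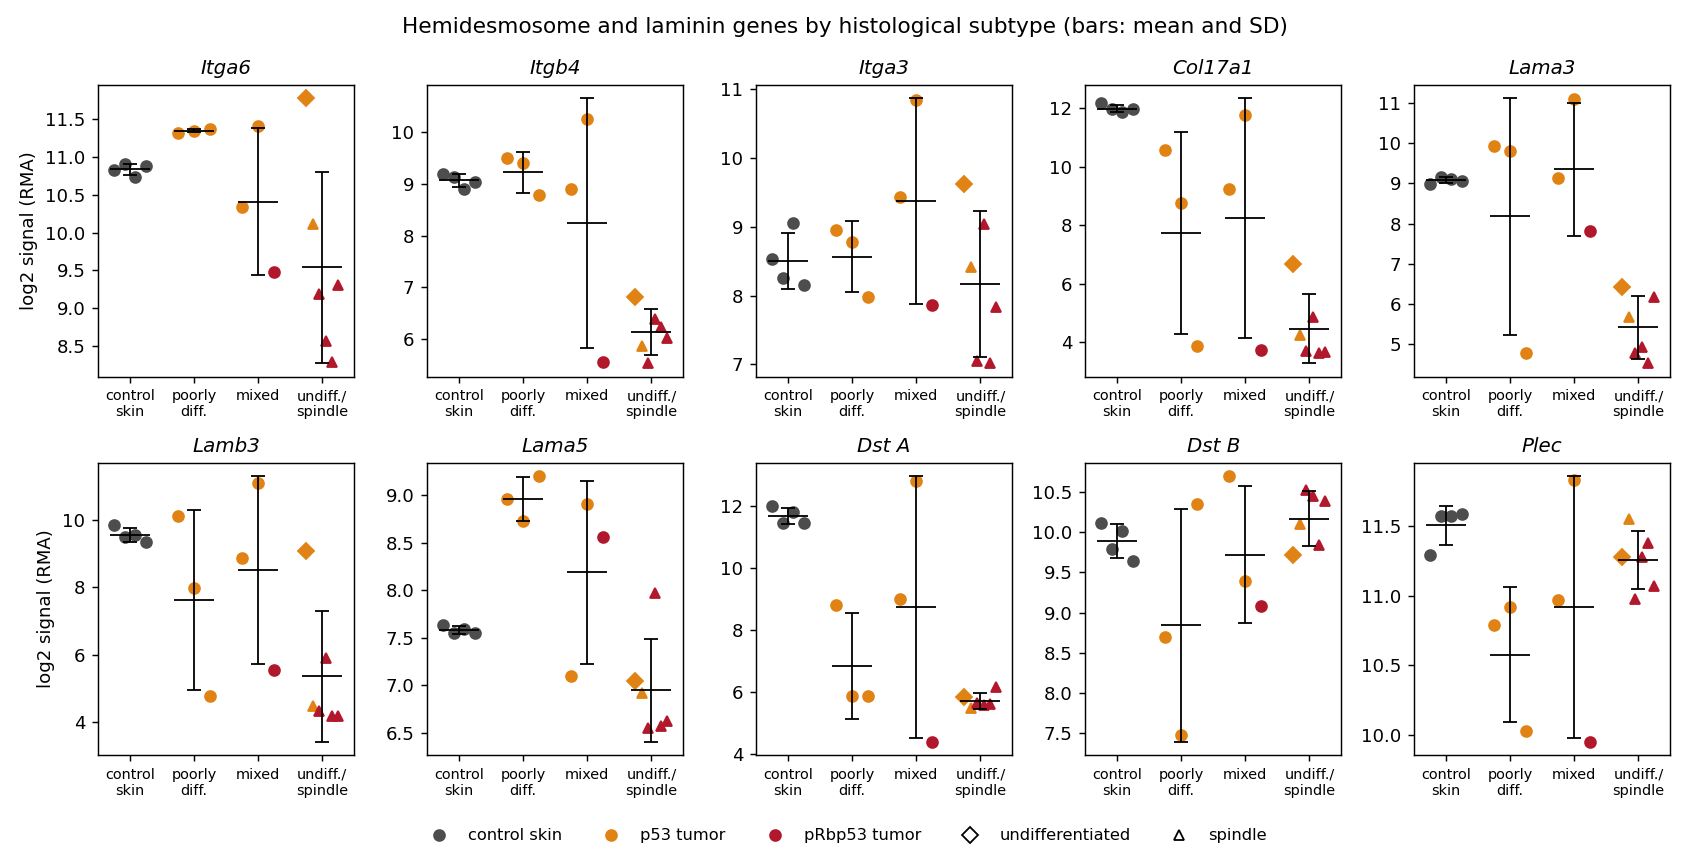
Log2 signal of each gene in every sample, by histological subtype (x axis), coloured by genotype, with the group mean and SD as bars. For Itgb4 all 6 undifferentiated or spindle tumors lie at 6.82 or below and all poorly differentiated tumors and control skin at 8.78 or above, while the mixed tumors span both ranges.

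The comparison by genotype set the 5 pRbp53 tumors against the 7 p53 tumors at an adjusted p of 0.1. Itga6 fell by 2.13 ± 0.32 (SE, limma adjusted p = 0.0306), and it was the only one of 9 genes to pass, where 0.0824% of all genes were called lower. The groups did not overlap for Itga6 alone, where 0.555% of all genes were separated in that direction. The 4 spindle tumors among 5 with this genotype, and the 3 poorly differentiated tumors that are all p53 tumors, leave histology partly confounded with genotype. Within the undifferentiated or spindle tumors the Itga6 difference was -2.11 (adjusted p = 0.254, 4 against 2 tumors), and with histology as a covariate it was -1.87 (adjusted p = 0.233). Leaving out the arrays with Csn2 above 6 it was -1.65 (adjusted p = 0.706, 5 against 3 tumors).

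Set against control skin, the pRbp53 tumors had lower Itga6, Itgb4, Col17a1 and Lamb3, 4 of 9 genes where 9.55% of all genes were called lower. In the p53 tumors only Col17a1 passed, 1 of 9 genes where 8.54% of all genes were lower, and this call was lost when any 1 of the 4 control arrays, of p53 tumors 3, 4 and 6 or of pRbp53 tumors 1 and 5 was left out (adjusted p up to 0.103) and without the arrays with Csn2 above 6 (adjusted p = 0.181). All 12 tumors pooled gave the same single gene, where 9.17% of all genes were lower, and without control skin 1 its adjusted p was 0.0523. In these counts each gene was read from its brightest probeset. A dimmer Dst probeset, described below, also passed as lower in the pooled, p53 and pRbp53 tumors. The 3 mixed tumors gave none of 9 genes by limma, where 11.4% of all genes were called in either direction, and 1 gene at an unadjusted p under 0.05, where 27.5% of all genes were. At that unadjusted threshold there were 7 of 9 genes by histology, where 25% of all genes were, and 6 of 9 between genotypes, where 10.6% were. These comparisons share the same 4 control samples.

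**Figure D2:**
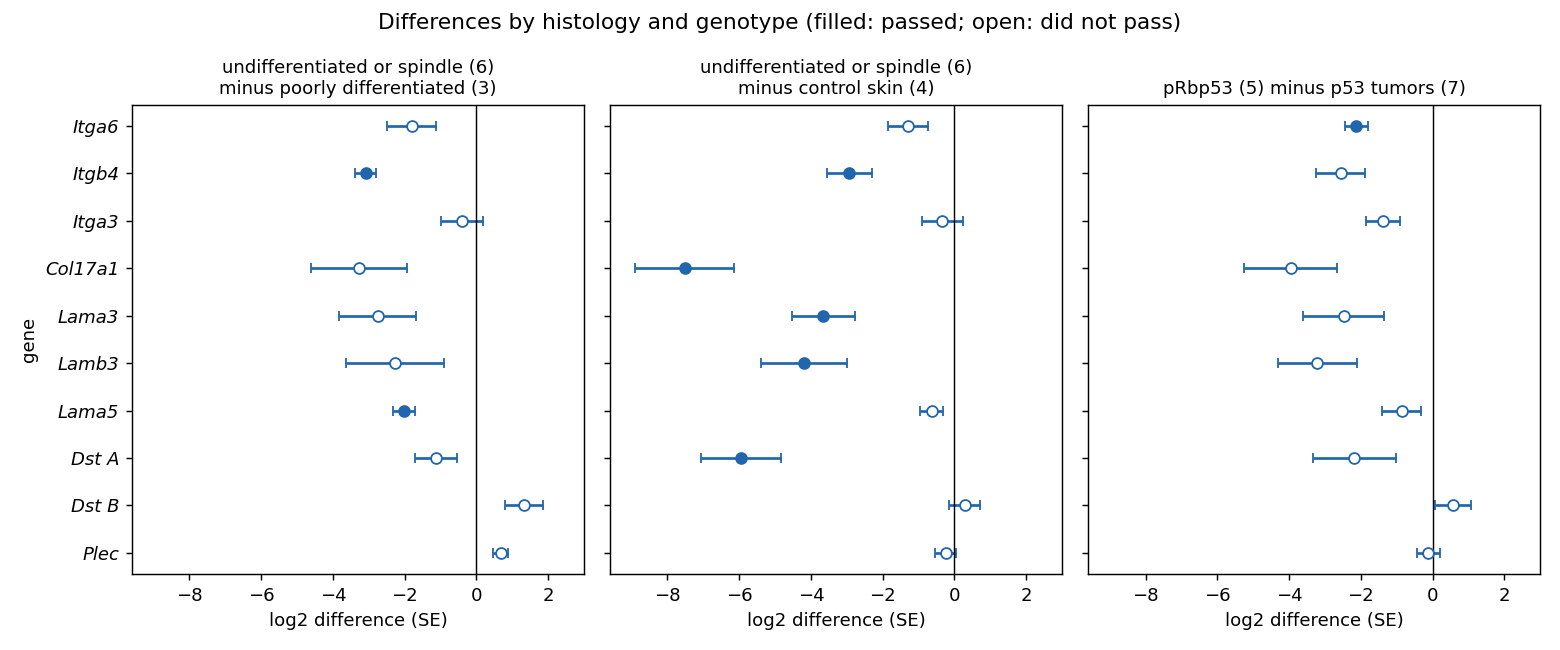
Log2 difference (x axis) of each gene in 3 comparisons, with standard errors as bars, filled where the adjusted p passed. Filled points fall below 0 in each panel, for 2 genes by histology, 4 genes and Dst A (the brighter of 1 pair of Dst probesets) against control skin, and Itga6 by genotype.

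The integrin β4 chain, which exists only in α6β4, had the smallest adjusted p by histology among the 9 genes. Itgb4 read 9.20, 9.14, 8.91 and 9.04 in control skin, 9.5, 9.41 and 8.78 in the poorly differentiated p53 tumors 2, 4 and 5, and 6.82 in the undifferentiated p53 tumor 3. The spindle tumors read 5.86 in p53 tumor 6 and 5.53, 6.38, 6.24 and 6.01 in pRbp53 tumors 1, 2, 3 and 5. Every undifferentiated or spindle tumor was thus below every poorly differentiated tumor, where 7.49% of all genes were separated in this direction. The mixed tumors did not share a level, at 8.91 and 10.26 in p53 tumors 1 and 7 and 5.56 in pRbp53 tumor 4. The difference from control skin was 0.16 ± 0.74 in the poorly differentiated tumors (SE, adjusted p = 0.937) and -2.93 ± 0.63 in the undifferentiated or spindle tumors (adjusted p = 0.00448, 7.63-fold lower). The spindle values lay near the array medians of 5.63 to 5.76 and no detection call could be made, so the Itgb4 folds are approximate. Between genotypes Itgb4 differed by -2.56 ± 0.68 (adjusted p = 0.252), with p53 tumors 3 and 6 as low as the pRbp53 tumors or nearly so, and without p53 tumor 6 the adjusted p was 0.0566.

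The α6 chain, its partner, which can also pair with β1, passed by genotype and did not pass by histology, and the difference between these effects was not tested. Itga6 read 10.83, 10.91, 10.73 and 10.88 in control skin. The p53 tumors had a lowest value of 10.11, a median of 11.35 and a highest of 11.78, and the pRbp53 tumors read 9.19, 8.56, 8.28, 9.48 and 9.31. No pRbp53 tumor reached the lowest p53 tumor or the lowest control. Group means were 10.84 ± 0.08 (SD, n = 4) in control skin, 11.10 ± 0.62 (SD, n = 7) and 8.97 ± 0.52 (SD, n = 5). Against control skin Itga6 fell by 1.87 ± 0.33 in the pRbp53 tumors (SE, adjusted p = 0.00147, 3.66-fold), and it was 0.26 ± 0.30 higher in the p53 tumors, which did not pass (adjusted p = 0.651). The other Itga6 probeset, which is dimmer, gave -2.21 ± 0.34 between genotypes (adjusted p = 0.0343), again without overlap.

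By histology Itga6 differed by -1.81 ± 0.68 (SE, adjusted p = 0.158), and 1 tumor decided this call. The undifferentiated p53 tumor 3 had the highest Itga6 of all 16 samples, at 11.78, beside an Itgb4 of 6.82 that lay below all controls. Without it the difference was -2.26 (adjusted p = 0.0144). The poorly differentiated tumors read 11.32, 11.35 and 11.37, all above the 4 controls, though the difference of 0.51 ± 0.65 did not pass (adjusted p = 0.708). The spindle pRbp53 tumors 1, 2, 3 and 5 read 9.31 or less and the spindle p53 tumor 6 read 10.11.

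Itga3, whose product carries the laminin-binding α3β1, passed in none of the 8 comparisons. Its brightest probeset read 8.54, 8.26, 9.06 and 8.16 in control skin and from 7.98 over a median of 8.95 to 10.84 in the p53 tumors. The pRbp53 tumors read 7.05, 9.04, 7.02, 7.86 and 7.84. The ranges overlapped in each pair of groups. The difference by genotype was -1.38 ± 0.49 (SE, adjusted p = 0.406), and the other probesets gave -1.05 ± 0.40 and -1.01 ± 0.33 (adjusted p = 0.437 and 0.367). By histology it was -0.40 ± 0.59 (adjusted p = 0.765). The highest value, 10.84, was that of p53 tumor 7, the mixed tumor whose Krt5 (13.67) and Krt14 (13.59) also exceeded those of all controls.

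Col17a1, the collagen that spans the basal membrane of the keratinocyte, had the largest differences among the 9 genes and was lower than every control in 12 of 12 tumors, where 5.54% of all genes were separated in that direction. Its only probeset read 12.17, 11.96, 11.87 and 11.96 in control skin. The p53 tumors 1 to 7 read 9.23, 10.59, 6.67, 8.75, 3.88, 4.27 and 11.76, and the pRbp53 tumors 3.71, 4.86, 3.62, 3.74 and 3.68. The p53 tumors spread over nearly the whole range of these values, and the pRbp53 tumors lay together at its lower end. In pRbp53 tumors 1, 3, 4 and 5 only 15.2% to 17.5% of the probesets on the same array were dimmer, against 98.9% to 99.1% in control skin, and since no detection call could be made, no fold is given for Col17a1, nor for Lama3, Lamb3 and Dst A, whose lowest tumors stood at 33.2%, 27.1% and 30.3% by the same measure. Means were 11.99 ± 0.13 (SD, n = 4), 7.88 ± 3.04 (SD, n = 7) and 3.92 ± 0.53 (SD, n = 5). Col17a1 fell by 8.07 ± 1.31 in the pRbp53 tumors (SE, limma adjusted p = 8.31e-04) and by 4.11 ± 1.22 in the p53 tumors (adjusted p = 0.0405). Non-overlapping lower values were found for 13.2% of all genes in the pRbp53 tumors and for 7.39% in the p53 tumors.

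The difference in Col17a1 between genotypes, -3.96 ± 1.29, did not pass (adjusted p = 0.364), and neither did that between the histological groups, -3.27 ± 1.33 (adjusted p = 0.190). A single tumor set the latter. p53 tumor 5 was labelled poorly differentiated but read 3.88, within the range of the spindle tumors, while the poorly differentiated p53 tumors 2 and 4 read 10.59 and 8.75. Without p53 tumor 5 the difference was -5.20 (adjusted p = 0.0107), with only p53 tumors 2 and 4 left as poorly differentiated. In the undifferentiated or spindle tumors Col17a1 fell by 7.52 ± 1.39 from control skin (adjusted p = 0.00163).

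**Figure D3:**
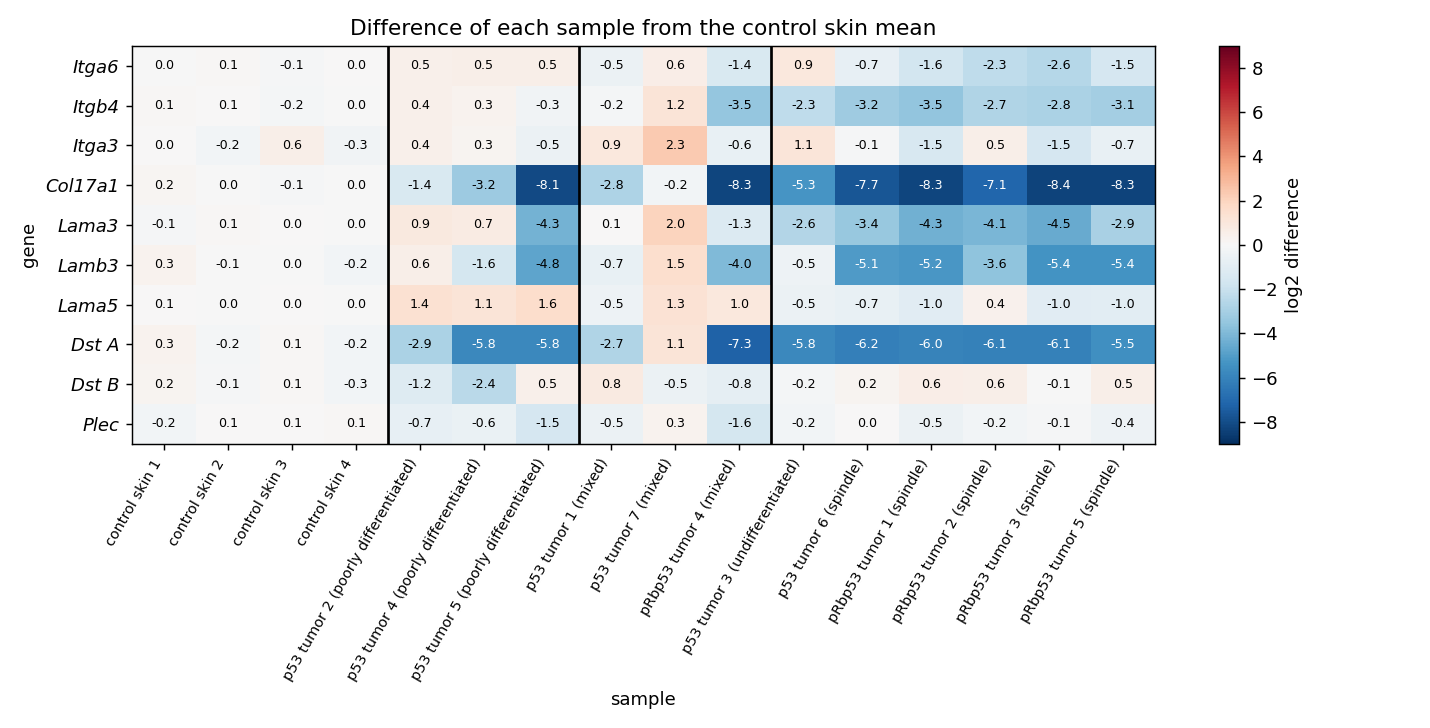
Log2 difference of each sample from the mean of the 4 control samples for each gene (rows), with samples in columns ordered by subtype and black lines between subtypes. Col17a1 is below 0 in all 12 tumors, Lama5 is above 0 in the 3 poorly differentiated tumors, and p53 tumor 7 is close to or above control skin in most rows.

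Dst encodes several plakins from 1 gene, among them the epithelial BP230 and longer forms of nerve and muscle, and its 4 probesets fell into 2 pairs with different patterns. They are called pair A and pair B, and the brighter of each pair is written Dst A and Dst B. The probesets of pair A varied together over the 12 tumors (Pearson r = 0.996, Spearman rho = 0.76), as did those of pair B (r = 0.96, rho = 0.85). Between Dst A and Dst B r was -0.07. These are descriptions over tumors, with all 4 probesets read on the same arrays, and the position of each probeset within the transcripts is not given in the files.

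Pair A had low values where Col17a1 was low. Dst A read 11.98, 11.46, 11.80 and 11.44 in control skin, and in the p53 tumors its lowest, median and highest values were 5.49, 5.86 and 12.81. The pRbp53 tumors read 5.65, 5.57, 5.61, 4.41 and 6.17. Of the 12 tumors 11 lay below all controls, and p53 tumor 7, at 12.81, lay above them. It fell by 4.91 ± 1.12 in the tumors (SE, adjusted p = 0.00791) and by 5.95 ± 1.12 in the undifferentiated or spindle tumors (adjusted p = 0.00184). It also fell in the poorly differentiated tumors, which read 8.80, 5.86 and 5.86 (-4.83 ± 1.32, adjusted p = 0.0288). That call was lost when any 1 control array, p53 tumor 4 or p53 tumor 5 was left out (adjusted p up to 0.113). Dst A passed as lower in the p53 tumors too, with differences of -4.86 to -3.64 when 1 array was left out. Of 16 such fits 7 lost the call (limma adjusted p up to 0.0808). In the pRbp53 tumors the differences were -6.36 to -5.92, and no such fit lost the call (limma adjusted p up to 0.0118). By histology it differed by -1.12 ± 0.59 (adjusted p = 0.323).

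Pair B gave no lower values in the spindle tumors. Dst B, the probeset with the highest mean and therefore the one that stands for the gene in the counts above, read 10.11, 9.80, 10.02 and 9.64 in control skin. The spindle tumors read 10.11 in p53 tumor 6 and 10.52, 10.45, 9.84 and 10.38 in the pRbp53 tumors. All of these lay above the lowest control. The lowest values were those of the poorly differentiated p53 tumors 4 and 2, at 7.47 and 8.69, and p53 tumor 5 read 10.35. The difference by histology was 1.33 ± 0.52 (SE, adjusted p = 0.178). Without p53 tumor 5 it was 2.09 (adjusted p = 0.0108), with only p53 tumors 2 and 4 left as poorly differentiated.

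**Figure D4:**
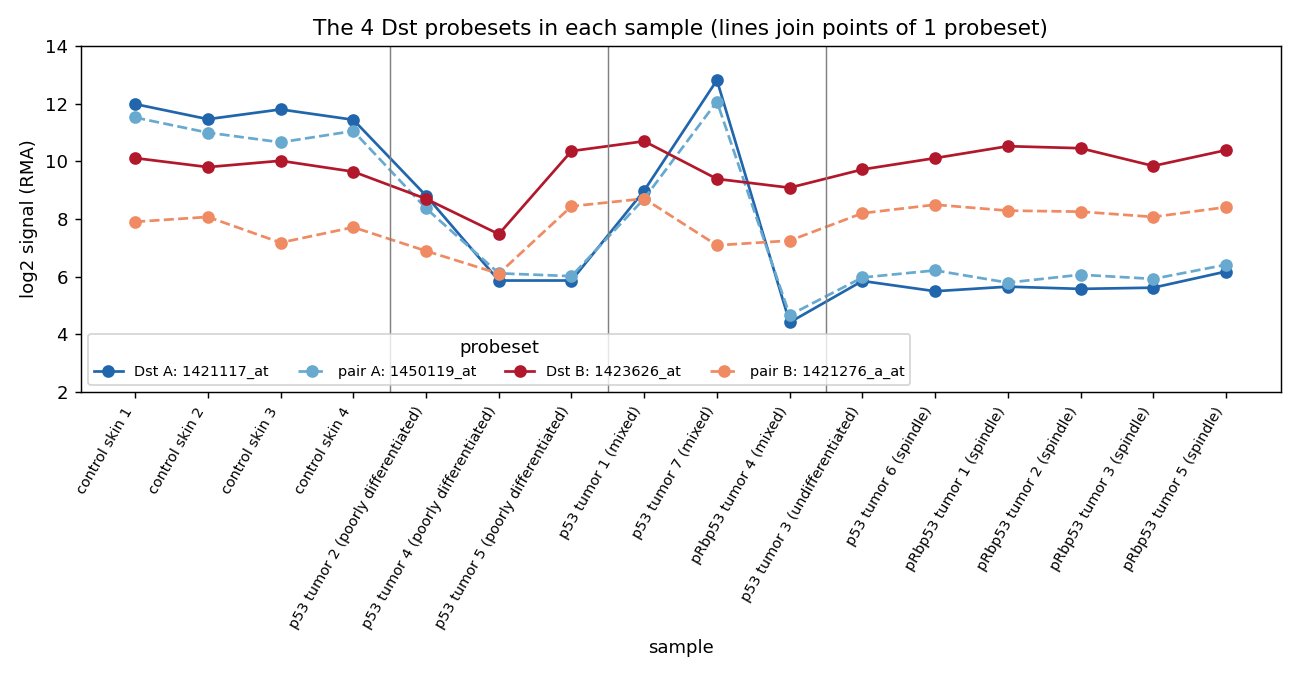
Log2 signal of the 4 Dst probesets (y axis) in each of the 16 samples (x axis), with lines joining the points of 1 probeset. The blue pair A drops from above 10 in control skin to about 6 in the spindle tumors, at 5.49 to 6.17 for Dst A, while the red pair B stays near its control level there, at 9.84 to 10.52 for Dst B.

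Plec, whose product links integrin β4 to keratin and also serves the cytoskeleton of muscle and fibroblasts, passed in none of the 8 comparisons. Its brightest probeset read 11.30, 11.58, 11.57 and 11.58 in control skin and 10.79, 10.92 and 10.03 in the poorly differentiated tumors. The undifferentiated or spindle tumors had a lowest value of 10.97, a median of 11.28 and a highest of 11.55. Every one of these exceeded the poorly differentiated tumors, where 8.45% of all genes were separated in that direction. The difference of 0.68 ± 0.21 did not pass (SE, adjusted p = 0.0931), nor did that of -0.93 ± 0.33 between poorly differentiated tumors and control skin (adjusted p = 0.0893). The second probeset gave 0.74 ± 0.40 by histology with overlapping groups (adjusted p = 0.331), and the third was dim, with 36.4% of all probesets below its mean.

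Of the laminin-332 chains, Lama3 encodes α3 and Lamb3 encodes β3, a chain known only from this laminin. Lama3 read 8.98, 9.15, 9.10 and 9.07 in control skin, and the p53 tumors 1 to 7 read 9.13, 9.93, 6.43, 9.80, 4.79, 5.68 and 11.09. The pRbp53 tumors read 4.78, 4.93, 4.53, 7.82 and 6.17. The low samples were the 6 undifferentiated or spindle tumors and p53 tumor 5, and pRbp53 tumor 4, which is mixed, lay between them and control skin. Lama3 fell by 3.65 ± 0.88 in the undifferentiated or spindle tumors (SE, adjusted p = 0.00917) and was 3.43 ± 1.15 lower in the pRbp53 tumors, which did not pass (adjusted p = 0.0654) although the groups did not overlap. By histology it differed by -2.76 ± 1.07 (adjusted p = 0.173). Without p53 tumor 5 it differed by -4.45 (adjusted p = 0.00211), with only p53 tumors 2 and 4 left as poorly differentiated.

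Lamb3 read 9.84, 9.48, 9.53 and 9.33 in control skin, and the p53 tumors 1 to 7 read 8.86, 10.10, 9.06, 7.97, 4.78, 4.47 and 11.07. The pRbp53 tumors read 4.32, 5.90, 4.19, 5.54 and 4.18. The 5 spindle tumors, pRbp53 tumor 4 and p53 tumor 5 were all at 5.90 or below, and the undifferentiated p53 tumor 3 stayed near control skin. Lamb3 fell by 4.72 ± 1.12 in the pRbp53 tumors (SE, adjusted p = 0.0120). In the undifferentiated or spindle tumors it fell by 4.19 ± 1.20 (adjusted p = 0.0247), a call that was lost when any 1 control array was left out (adjusted p up to 0.0649). It differed by -3.22 ± 1.10 between genotypes (adjusted p = 0.386) and by -2.26 ± 1.37 by histology (adjusted p = 0.393).

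Lama5, the α chain of the more widespread laminin-511, passed as higher in the poorly differentiated tumors than in control skin. It also passed as lower in the undifferentiated or spindle tumors than in the poorly differentiated tumors, so both calls rest on the poorly differentiated tumors. Its brightest probeset read 7.63, 7.55, 7.59 and 7.54 in control skin, 8.96, 8.72 and 9.19 in the poorly differentiated tumors and 7.10, 8.91 and 8.56 in the mixed p53 tumors 1 and 7 and pRbp53 tumor 4. The undifferentiated p53 tumor 3 read 7.04, the spindle p53 tumor 6 read 6.92 and the spindle pRbp53 tumors read 6.55, 7.97, 6.57 and 6.62. The poorly differentiated tumors were thus above, and 5 of the 6 undifferentiated or spindle tumors below, every control. Lama5 rose by 1.38 ± 0.38 in the poorly differentiated tumors (SE, adjusted p = 0.0316, 2.60-fold), a call that was lost when any 1 control or any 1 of these 3 tumors was left out (adjusted p up to 0.0916). In this comparison 4 of 9 genes had groups without overlap, where 32.2% of all genes did. Markers of other cells moved in it too. Both simple epithelium markers rose, Krt8 by 6.61 ± 1.44 (adjusted p = 0.00823) and Krt18 by 7.52 ± 1.39 (adjusted p = 0.00279), their mean log2 signal lying between 11.52 and 13.10 against 4.54 to 6.62 in control skin. All 5 fibroblast markers fell, where 8.4% of all genes did, with a mean signal of 9.25 to 11.05 against 13.27 to 13.89. Of 3 genes listed as Schwann cell markers only Sox10 passed, higher by 2.96 ± 0.16 (limma adjusted p = 1.89e-08). The others differed in direction, Mbp at -0.63 (adjusted p = 0.0618) and S100b at 1.16 (adjusted p = 0.561), so Sox10 alone is not read as a sign of Schwann cells. The part of all these markers in the Lama5 difference was not tested. The difference of -0.63 ± 0.32 between undifferentiated or spindle tumors and control skin did not pass (adjusted p = 0.203). The second probeset gave -1.92 ± 0.31 by histology (adjusted p = 0.00831), and the remaining probesets of Lama5 and Lama3 passed in no comparison by histology or genotype.

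These genes did not move together in p53 tumor 5. It had Itga6 at 11.37, Itgb4 at 8.78 and Lama5 at 9.19, near to or above control skin, while Col17a1 (3.88), Lama3 (4.79), Lamb3 (4.78) and Dst A (5.86) were at the level of the spindle tumors. Its Krt14 was 4.41 and its Krt18 13.22. The mixed tumor p53 tumor 7 had 7 of the 9 genes above all controls, where 37.2% of all genes on that array were. In pRbp53 tumor 4, also mixed, 8 of the 9 were below all controls, where 31.7% of all genes were, among them Itgb4 at 5.56, and Lama5 was above them at 8.56.

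Over the 12 tumors, as a description of samples whose cell type markers differ, Col17a1 and Lamb3 correlated at r = 0.95 (rho = 0.94) and Col17a1 and Lama3 at r = 0.90 (rho = 0.83). Itgb4 correlated at 0.86 with Col17a1 and at 0.73 with Itga6. Lama5 correlated at 0.47 with Col17a1, and at 0.82 with Krt18 and -0.90 with the mesenchymal intermediate filament gene Vim. Among the 18193 genes the one closest to Col17a1 was Krt5 (r = 0.96), that closest to Lama3 was Krt14 (r = 0.99) and that closest to Lamb3 was Col17a1. Itgb4 was closest to Serpinb5, which encodes maspin (r = 0.98), and then to Lad1, which encodes the basement membrane protein ladinin (r = 0.96). Lama5 was closest to Ptpn4 (r = 0.95), Itga6 to Irx5 (r = 0.91), Itga3 to Kcnh1 (r = 0.91), Plec to Pon2 (r = 0.93), Dst A to Ntrk3 (r = 0.98) and Dst B to Lamtor5 (r = 0.92).

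**Figure D5:**
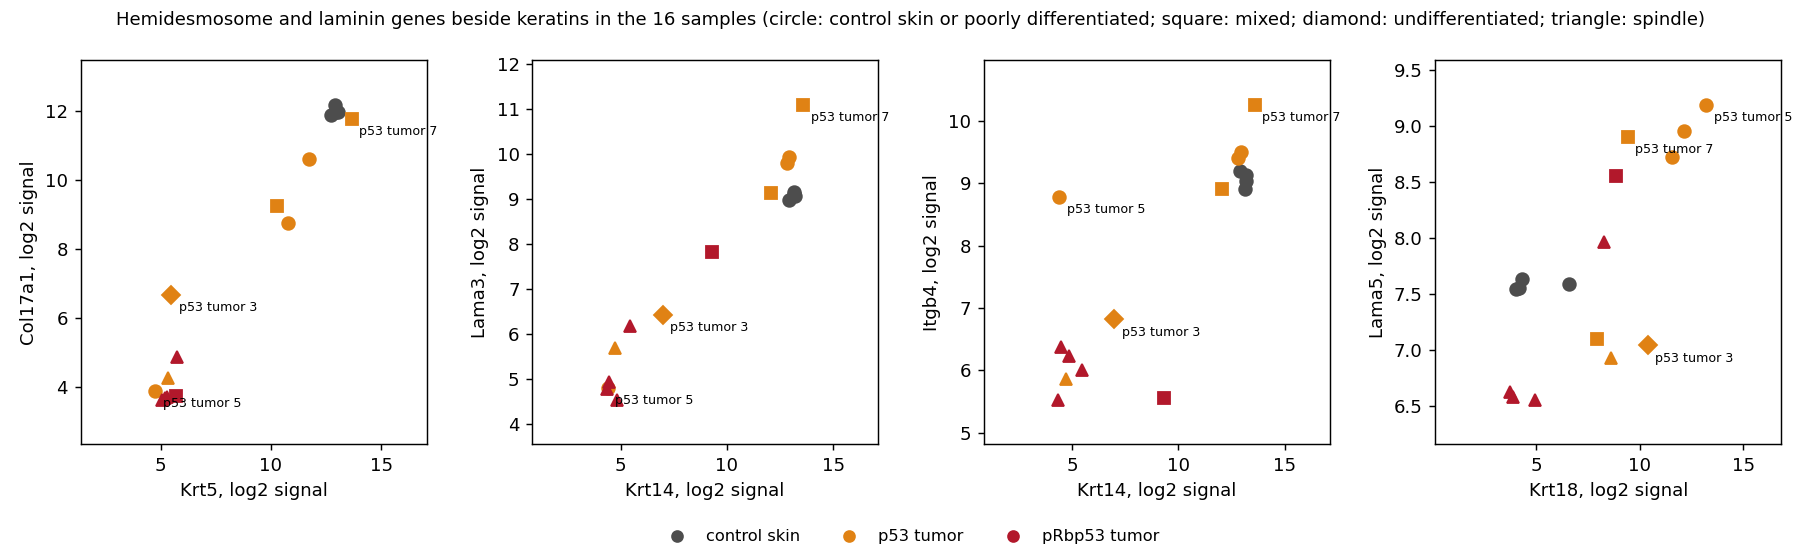
Log2 signal of 4 of the genes (y axes) against that of a keratin (x axes) in the 16 samples. Col17a1 and Lama3 are low where Krt5 and Krt14 are low, whereas p53 tumor 5 keeps an Itgb4 of 8.78 at a Krt14 of 4.41, and Lama5 is highest, at 9.19, where Krt18 is highest, at 13.22.

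Of 5 plakins that are not part of the hemidesmosome, 4 fell in the undifferentiated or spindle tumors relative to the poorly differentiated tumors and none rose, where 4.64% of all genes fell and 4.49% rose, with a median of -2.75 against 0.02 for all genes. Dsp, which encodes desmoplakin of the desmosome, fell by 7.50 ± 0.45 (SE, limma adjusted p = 4.48e-05) and Eppk1, encoding epiplakin, fell by 4.71 ± 0.63 (adjusted p = 0.00349). Evpl and Ppl, which encode envoplakin and periplakin of the cornified envelope, fell by 2.75 ± 0.49 (adjusted p = 0.0120) and by 2.12 ± 0.45 (adjusted p = 0.0258). The fifth, Macf1, a crosslinker of microtubules and actin, differed by 0.32 ± 0.36 (adjusted p = 0.671).

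Of 24 basement membrane genes, 2 rose, 2 fell and 20 did not pass by histology, not far from the 4.49% and 4.64% of all genes, with a median of 0.12. Nid1, which encodes the laminin binder nidogen, rose by 2.25 ± 0.33 (SE, adjusted p = 0.00511) and Lamb1, the β1 chain that laminin-511 uses, rose by 2.16 ± 0.54 (adjusted p = 0.0454), opposite to Lama5. Col4a6, a chain of epithelial collagen IV, fell by 1.65 ± 0.11 (adjusted p = 9.75e-05) and Agrn, encoding agrin, fell by 1.67 ± 0.42 (adjusted p = 0.0467). Col7a1, the anchoring fibril collagen beneath the hemidesmosome, read 9.04, 9.13, 9.10 and 9.16 in control skin and from 5.85 to 10.06 in the poorly differentiated tumors. It differed by 0.86 ± 1.02 by histology (adjusted p = 0.699), with p53 tumor 5 the lowest of all samples.

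Of 19 other integrins and laminin receptors 1 rose, 3 fell and 15 did not pass by histology, where 4.49% of all genes rose and 4.64% fell, with a median of 0.08. Itga5, whose α5β1 binds fibronectin, rose by 2.74 ± 0.52 (SE, adjusted p = 0.0149). Itgb8, Bcam, a laminin α5 receptor, and the epithelial Itgb6 fell by 3.18 ± 0.64, 1.82 ± 0.31 and 0.88 ± 0.17 (adjusted p = 0.0191, 0.010 and 0.0149). Itgb1, the partner of α3 and the alternative partner of α6, differed by 0.81 ± 0.37 (adjusted p = 0.249) and rose by 1.61 ± 0.42 against control skin in the undifferentiated or spindle tumors (adjusted p = 0.0140). The tetraspanin Cd151, which binds α3β1 and α6β4, differed by -0.28 ± 0.32 by histology (adjusted p = 0.683).

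Of 10 focal adhesion linkers, which tie integrins to actin in place of keratin, 2 rose and none fell by histology, where 4.49% of all genes rose, with a median of 0.56. These were Parvb, encoding β-parvin, by 2.89 ± 0.55 (SE, adjusted p = 0.0157) and Zyx, encoding zyxin, by 1.78 ± 0.37 (adjusted p = 0.0225). Of 6 enzymes that process laminin-332 or shed collagen XVII, 3 rose and none fell, where 4.49% of all genes rose, with a median of 1.02. Bmp1, which trims laminin chains, rose by 2.57 ± 0.36 (adjusted p = 0.00406), Mmp14, a membrane metalloproteinase, by 2.49 ± 0.57 (adjusted p = 0.0331) and the sheddase Adam9 by 1.83 ± 0.20 (adjusted p = 0.00112).

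Markers of other cell types moved with the same comparison, in which 4.49% of all genes rose and 4.64% fell. Of 7 mesenchymal genes 4 rose (Vim by 2.005 ± 0.191, adjusted p = 5.86e-04, with Zeb1, Zeb2 and Snai1), and the mean log2 signal of the 7 was 9.14 to 9.82 in the undifferentiated or spindle tumors and 6.09 to 7.91 in the poorly differentiated tumors. Of 5 fibroblast markers 4 rose, with mean signals of 12.32 to 13.97 against 9.25 to 11.05, and 3 of 3 macrophage markers rose, with 9.34 to 10.53 against 7.57 to 8.33. Of 3 basal keratinocyte markers none passed by histology, at 4.88 to 5.82 against 4.83 to 12.19. Of 3 mammary markers Csn3 fell, by 6.59 ± 1.40 (adjusted p = 0.0248), and of 3 Schwann cell markers Sox10 and Mbp fell, by 3.05 ± 0.12 and by 1.46 ± 0.16. Of 5 endothelial markers 1 rose, Pecam1 by 0.86 ± 0.19, and no marker of skeletal or smooth muscle, of adipocytes, of suprabasal keratinocytes or of simple epithelium passed. Their part in the differences of the hemidesmosome and laminin genes was not tested.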

How the data were processed

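Total RNA of 4 control skin samples and 12 carcinomas was hybridised to Affymetrix MOE430 2.0 arrays, and the authors deposited log2 intensities made with RMA (version not given in the sources used here), which corrects background, normalizes the arrays to 1 distribution and summarises each probeset. The files hold no raw signals, so no detection call could be made, and precision is bounded by how many arrays there are. The members and gene lists were chosen with earlier results of these data known.

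Samples were grouped by title and histological label. Of 45101 probesets 64 array controls were left out. An annotation of 2016 gave 1 symbol for 34945 probesets, several for 932 and none for 9160, and the probeset of highest mean over the 16 arrays stood for each of the 18193 genes. The named genes are the 9 members, up to 4 genes of each list with the smallest p, Cd151 and Col7a1, and the genes closest to each member by Pearson r. Macf1 and Itgb1 were added after their values were seen, and other listed genes are named as marker values. Linear models were fitted with limma 3.58.1 in R 4.3.3 to 45037 probesets, with empirical Bayes and two-sided p-values adjusted by Benjamini-Hochberg over all of them, at 0.05 (0.1 for genotype). The comparisons with control skin used 2 groups for pooled tumors, 3 by genotype and 4 by histology, and the other comparisons used the 12 or 9 tumors concerned. On simulated data the fit by histology recovered 41% of 200 probesets changed by 1 and 78% of 200 changed by 2 on the log2 scale, with 12 calls among 44637 unchanged, and the fit by genotype 58.5% and 85.5%, with 26. Sequences and gene IDs (9 of 9 matched) are those of RefSeq, GRCm38.p6.

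Alternatives were the replicate number as a block, brighter probesets, quantile normalization, median centring, a trended and robust prior, array weights, a stricter threshold, the t-test of the methods, the mean of all probesets of a gene, the actin difference, genotype or histology as covariates, subsets of tumors, control skin 2 and 4 averaged, control skin 3 and p53 tumor 7 left out and each array left out in turn. Leaving out the arrays with Csn2 above 6 was chosen after seeing the data. Figures were drawn with matplotlib 3.10.9.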

Additional observations from a re-analysis of the deposited data

Results flagged for a closer look

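Among 40 groups of 4 to 7 samples, 5 samples lay far from the rest of their group by Dixon's test, which chance alone flags in about 1 of 20 groups. Among the 5 pRbp53 tumors, pRbp53 tumor 2 had the highest Col17a1, at 4.86 where the others read 3.62 to 3.74. Among the 6 undifferentiated or spindle tumors, p53 tumor 3 had the highest Lamb3, at 9.06 where the next was 5.90, and pRbp53 tumor 2 had the highest Lama5, at 7.97 where the next was 7.04. Plec was lowest in control skin 1, at 11.30, and in pRbp53 tumor 4 among the pRbp53 tumors, at 9.95.

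Effects against control skin that differed between groups of tumors by limma were those of Itgb4 and Lama5 by histology and of Itga6 by genotype. The undifferentiated or spindle tumors differed from the poorly differentiated tumors by -3.09 for Itgb4 and by -2.01 for Lama5. The pRbp53 tumors differed from the p53 tumors by -2.13 for Itga6.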

How the results depend on the processing

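Of 1098 refits of 42 single results, 1012 kept their direction and their side of the threshold, 59 lost a call, 26 gained one and 1 reversed, and 16 of the 42 results changed under none. The reversed value was Dst A by genotype, -2.18 in all tumors and 0.083 within the undifferentiated or spindle tumors (adjusted p = 0.918), neither past the threshold. The cause of the changes was not tested. The methods' t-test kept the counts of genes passing for all tumors (1), by genotype (1) and by histology (2).

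With each array left out in turn, the number of the 9 genes that passed was 0 to 1 for all tumors (main 1) and for p53 tumors (main 1), 4 to 5 for pRbp53 tumors (main 4), 0 to 3 for poorly differentiated (main 1), 3 to 5 for undifferentiated or spindle (main 4) and 0 to 1 for mixed tumors (main 0) against control skin. It was 1 to 2 by genotype (main 1) and 2 to 5 by histology (main 2). The 5 was reached without p53 tumor 5, with only p53 tumors 2 and 4 left as poorly differentiated. At an adjusted p of 0.01 the count was 0 for all tumors, p53 tumors and poorly differentiated tumors. Array weights gave 5 for all tumors and 3 for poorly differentiated tumors, the mean of all probesets of a gene gave 2 in each of these and in p53 tumors, and the mean of both genotype effects gave 2. The share of all genes that passed was counted for the main fits only. Whether these counts differ from that of other genes under the same alternative was therefore not tested. Averaging control skin 2 and 4 gave 0 for p53 and for poorly differentiated tumors, and leaving out the arrays with Csn2 above 6 gave 0 for p53 tumors and 0 by genotype. By genotype the count was also 0 with histology as a covariate and within the undifferentiated or spindle tumors. By histology it stayed at 2 with genotype as a covariate and within the p53 tumors.

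The labels do not say whether the replicate numbers pair the samples. The deviations of same-numbered samples correlated above 0.1 in 3 of 13 pairs. Samples with different numbers were not compared in this way, so the count cannot decide the question. With the replicate block the count was 0 by genotype (Itga6 at -2.27, adjusted p = 0.175), 0 by histology (Itgb4 at -2.94, adjusted p = 0.104, and Lama5 at -1.78, adjusted p = 0.321), 0 for poorly differentiated tumors and 2 for undifferentiated or spindle tumors. With 3 to 7 tumors in a group, differences near 1 on the log2 scale were often missed in simulated data.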
